A study of Mus musculus with 19 samples.

Results

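DMC1 SSDS maps meiotic double-strand breaks (DSBs) through the single-stranded DNA that the recombinase DMC1 coats at each resected break. It was used here on CAST/SPRT, the B6SPRTF1 male hybrid carrying the de novo CAST allele of Prdm9. Described are the hotspots of the CAST allele at which the breaks fell mainly on a single homolog. A hotspot was chosen by its B6 fraction, the share of its DMC1 reads carrying the B6 version of the sequence, in a single library. On the 19 autosomes, 3470 hotspots of the 9592 called in this hybrid were attributed to the CAST allele, and 2471 of these had a B6 fraction. At 671 hotspots over 75% of the DMC1 reads came from the B6 chromosome, and these are called B6-side hotspots. At 458 hotspots under 25% did, so that the SPRT chromosome was the one mainly cut, and these are called SPRT-side hotspots. The 1129 one-sided hotspots made up 45.7% of the CAST hotspots with a B6 fraction (95% Wilson interval 43.7 to 47.7%), and the remaining 1342 were matched, with 25 to 75% of reads from B6. Over the whole series, 71181 autosomal hotspots were listed for 5 genotypes.

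The CAST/SPRT mice were sons of B6 females (C57BL/6, M. musculus domesticus) heterozygous for an engineered Prdm9 allele, and of SPRET/EiJ males (M. spretus). In the engineered allele the array of zinc fingers that reads DNA is that of M. musculus castaneus, while the rest of the gene, and the rest of the maternal genome, is B6. The males therefore carried the CAST allele from the mother and the SPRT allele from the father, and each autosome pair held a B6 and a SPRT homolog. Whole testis was taken at 10 weeks of age. The hybrid had 1 DMC1 library, and 2 H3K4me3 ChIP samples and 2 inputs whose values stand as a single column, so no value has a replicate error. The other hybrids used for comparison were Hum/SPRT, with a Prdm9 allele carrying the human zinc fingers, B6/SPRT, with the wild-type B6 allele, and STUS/B6 and STUS/Hum, with the STUS/Jpia strain (M. musculus musculus) in place of SPRT. Each of them also had 1 DMC1 library.

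PRDM9 binds DNA motifs in early meiosis and methylates the histones beside them, H3K4me3 among other marks, and SPO11 then makes DSBs at the marked sites. The broken homolog copies the intact one during repair, so that a motif variant that binds less well is passed on more often, and strong motifs of an allele are lost over generations from the lineage that carries it. A lineage in which an allele has never acted has not had its motifs removed in this way, although mutation can still change them. In a hybrid such differences between the homologs appear as hotspots that are bound and cut on one chromosome only. Break sites whose position is bound on both homologs are repaired from the homolog more readily. A one-sided CAST hotspot in CAST/SPRT could be of either direction, and H3K4me3 gives a readout of binding on each homolog that was not used to choose the hotspots.

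The DMC1 signal is the deposited strength of a hotspot. Its scaling to sequencing depth is not stated, and the number of reads behind a B6 fraction is unknown, so that a fraction near a limit may have fallen on the other side of it in another library. H3K4me3 was deposited as coverage of ChIP and input, as enrichment over input, and as the share of SNP-carrying reads from B6. B6-side hotspots had a median of 257 SNP-carrying H3K4me3 reads and SPRT-side hotspots of 269.5. At 95.04% of autosomal hotspots this number exceeded the ChIP coverage, so these reads were not a subset of the coverage. The X chromosome, which a male inherits from the B6 mother, had 99.9% of 73442 H3K4me3 reads and a median of 100% of DMC1 reads (467 hotspots) assigned to B6. This checks the labels and the assignment of reads to B6, though not the assignment to SPRT. Positions are given on mm10, and gene names and sequences come from RefSeq annotation of GRCm38.p6, which is the same assembly.

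Sequence around a hotspot centre could be shown for the 5 one-sided hotspots that lay within the promoter windows of RefSeq genes, and these are printed because they are the loci at which a reader can see the DNA of one of the homologs. They are not the strongest hotspots. The reference is the B6 chromosome. Thus for the B6-side loci it is the homolog that was mainly cut, and for the SPRT-side loci it is the homolog that was mainly spared. All are written on the plus strand, 5′ to 3′, with the central 21 bases around the deposited centre in capitals and up to 75 bases to either side, as far as the window reached. The B6-side loci lay at chr7:127076950-127077043, in the long noncoding RNA gene Gm51457, and at chr11:59542503-59542653, upstream of one annotated start of Nlrp3, which encodes an inflammasome sensor, but inside the full span of that gene.
Gm51457 locus: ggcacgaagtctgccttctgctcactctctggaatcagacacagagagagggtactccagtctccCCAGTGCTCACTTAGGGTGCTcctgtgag
Nlrp3 locus: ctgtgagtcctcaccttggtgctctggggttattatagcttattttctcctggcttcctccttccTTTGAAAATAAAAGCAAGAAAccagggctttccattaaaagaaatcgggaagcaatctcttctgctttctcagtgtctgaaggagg

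The SPRT-side loci lay at chr2:167553140-167553290, before the long noncoding RNA gene Gm11476, at chr11:65287991-65288083, before Gm12295 and within the long noncoding RNA gene Gm30586, and at chr13:54701213-54701331, before Cdhr2, which encodes a protocadherin of the intestinal brush border.
Gm11476 locus: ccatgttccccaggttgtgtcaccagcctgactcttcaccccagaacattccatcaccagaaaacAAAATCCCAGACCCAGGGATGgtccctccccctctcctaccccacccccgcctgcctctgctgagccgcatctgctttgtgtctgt
Gm12295 locus: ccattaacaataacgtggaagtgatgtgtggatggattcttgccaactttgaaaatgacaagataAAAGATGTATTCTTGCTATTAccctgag
Cdhr2 locus: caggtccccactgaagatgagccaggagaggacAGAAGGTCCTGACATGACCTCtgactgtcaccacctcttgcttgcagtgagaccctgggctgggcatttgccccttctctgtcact

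These loci were at the mild end of one-sidedness. At the Gm51457 locus 79.5% of DMC1 reads and 76.5% of 383 H3K4me3 reads came from B6 (95% Wilson interval of the latter 72.0 to 80.5%). At the Nlrp3 locus the DMC1 share was 75.5%, just inside the limit, while H3K4me3 was shared evenly, with 51.1% of 360 reads from B6 (46.0 to 56.2%). On the SPRT side, the B6 share of DMC1 reads was 17.1% at the Gm11476 locus, 23.5% at the Gm12295 locus and 24.0% at the Cdhr2 locus. The B6 homologs printed here still carried the mark, with a B6 share of H3K4me3 reads of 37.0%, 47.1% and 51.2%. All of the printed loci, on either side, lay in promoter windows. How much of the mark there was made by PRDM9 was not tested. Of the bases printed, the GC share ranged from 36.6% at the Gm12295 locus to 58.3% at the Gm11476 locus. No motif was searched and the SPRT sequence was not used here, so the base differences that separate the homologs at these loci were not examined.

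The first comparison is of the number of hotspots cut on each homolog. B6-side hotspots made up 59.4% of the one-sided CAST hotspots (95% Wilson interval 56.5 to 62.3%, covering counting only). They outnumbered SPRT-side hotspots on 17 of 19 autosomes, the exceptions being chromosome 4, with 36 against 37, and chromosome 19, with 14 against 23. The ratio was largest on chromosome 1, with 60 B6-side and 24 SPRT-side hotspots. Since the DMC1 fraction chose the hotspots, these counts are a description with no test.

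**Figure D1:**
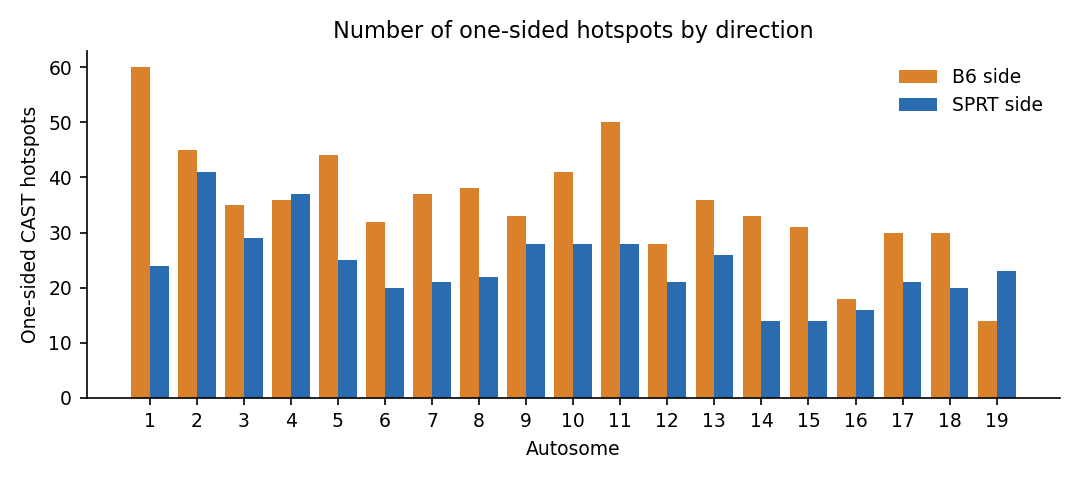
Number of one-sided CAST hotspots in CAST/SPRT on each autosome (x axis) that were cut mainly on the B6 homolog (orange bars) or on the SPRT homolog (blue bars), from 1 DMC1 library. B6-side hotspots were the more numerous on 17 of the 19 autosomes, chromosomes 4 and 19 being the exceptions.

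The excess lay among the weaker hotspots. When the 2471 CAST hotspots were ordered by DMC1 signal and divided into 5 equal parts, B6-side hotspots fell from 175 of 495 in the weakest part (35.4%, interval 31.3 to 39.7%) to 74 of 494 in the strongest (14.98%, interval 12.1 to 18.4%). SPRT-side hotspots numbered 95, 84, 88, 96 and 95 from the weakest to the strongest part, a share between 17.0% and 19.4% throughout. Matched hotspots rose from 45.5% to 65.8%. In the strongest part SPRT-side hotspots were thus the more numerous of the one-sided kinds, and at or above the median signal of 24.7 the directions were near equal, with 255 B6-side and 236 SPRT-side hotspots. Weighted by signal, B6-side hotspots held 21.3% and SPRT-side hotspots 19.1% of the DMC1 signal of CAST hotspots with a B6 fraction, although they were 27.2% and 18.5% of the hotspots.

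The count also moved with hotspots that had no allele attributed to them. The authors had attributed alleles by comparison with other mice, and 133 B6-side and 343 SPRT-side hotspots of the hybrid were listed without an allele. With them added to the CAST hotspots the directions came to 804 and 801. Which of them the CAST allele made is not known, and the part that attribution plays in the excess was not tested. For the SPRT allele in the same hybrid the directions were far from equal, with 2986 B6-side and 277 SPRT-side hotspots (91.5% B6-side, interval 90.5 to 92.4%). The other de novo allele, the humanized one in Hum/SPRT, had 1259 and 614 (67.2%, interval 65.1 to 69.3%). Of these 3 sets with an allele, the CAST hotspots had the least unequal split, a difference with no replicate check.

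Within each direction the DMC1 shares differed in how complete they were. The median DMC1 share of the cut homolog was 96.0% at B6-side hotspots (95% order-statistic interval 95.3 to 96.6%, quartiles 89.1 and 99.2%) and 90.5% at SPRT-side hotspots (89.1 to 91.7%, quartiles 83.0 and 96.4%). All DMC1 reads came from the cut homolog at 161 B6-side hotspots (24.0%) and at 40 SPRT-side hotspots (8.73%). With limits of 10 and 90% in place of 25 and 75%, 485 B6-side and 234 SPRT-side hotspots remained, and the B6-side excess was larger.

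The hotspots nearest the limits were as follows. The B6-side hotspots nearest the limit, on chromosome 1 at position 177376825 and at the Nlrp3 locus, had B6 fractions of DMC1 of 75.4% and 75.5%. Hotspots on chromosome 10 at position 70003164, within Ank3, and on chromosome 13 at position 109570125, within Pde4d, stood at exactly 75% and so were matched. On the SPRT side, the nearest inside, at chromosome 1 position 93218771 within Crocc2 and chromosome 17 position 42864505 within Cd2ap, had 24.8% and 24.6%. Those just outside, at chromosome 7 position 55182579 within Luzp2 and chromosome 11 position 78984710 within Lgals9, had exactly 25%. The H3K4me3 share from B6 was 33.0% and 27.9% at the inside pair and 46.0% and 48.7% at the outside pair, and it was 65.5% and 51.1% inside against 56.6% and 68.3% outside on the B6 side. Their DMC1 signals were 72.3 and 34.7 inside against 56.8 and 36.3 outside on the SPRT side, and 100.3 and 30.5 inside against 29.0 and 21.9 outside on the B6 side.

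The next comparison asks whether the histone mark was as one-sided as the breaks. H3K4me3 leaned to the cut homolog in both directions, but less on the SPRT side. The median share of H3K4me3 reads from the cut homolog was 94.8% at 667 B6-side hotspots (interval 93.8 to 95.4%, quartiles 81.2 and 97.8%) and 75.1% at 456 SPRT-side hotspots (72.5 to 78.4%, quartiles 61.1 and 91.1%). The remaining 4 and 2 hotspots had no H3K4me3 fraction. The cut homolog's median was higher on the B6 side on 19 of 19 autosomes. At matched hotspots the median B6 share of H3K4me3 was 54.3% (interval 53.9 to 54.8%), somewhat above an even split, while their median B6 share of DMC1 was 47.0% (45.9 to 47.9%).

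**Figure D2:**
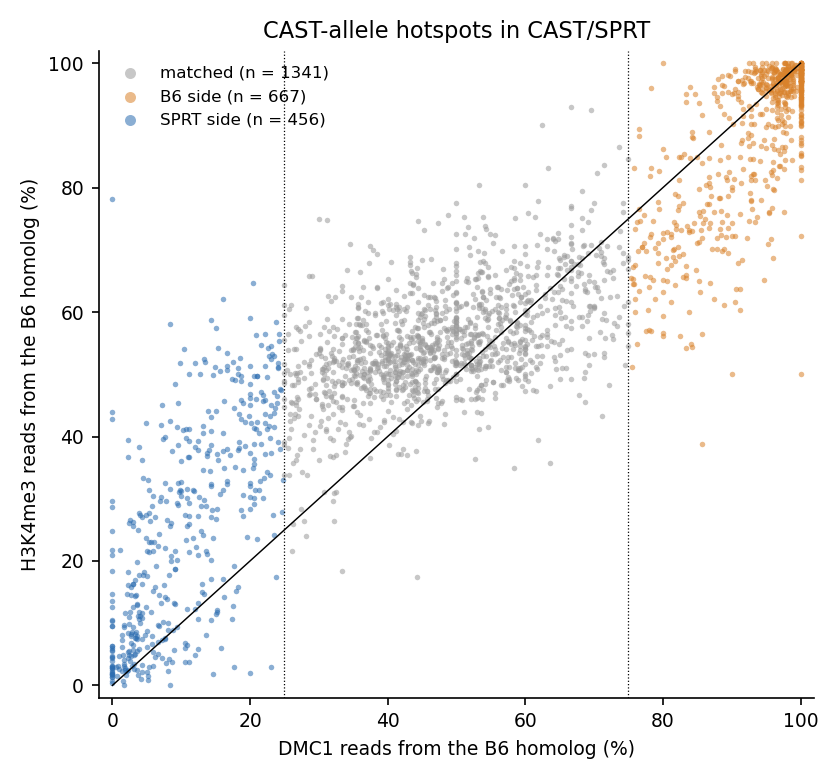
Percentage of H3K4me3 reads (y axis) against percentage of DMC1 reads (x axis) that came from the B6 homolog, 1 point for each autosomal CAST hotspot of CAST/SPRT, with the limits of 25 and 75% dotted and the line of equal percentages drawn. B6-side points (orange, median H3K4me3 share 94.8% from B6) gather in the upper corner, whereas SPRT-side points (blue, median 24.9% from B6) lie mostly above the line.

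The distributions show the same. Over 90% of the H3K4me3 reads came from the cut homolog at 415 of 667 B6-side hotspots (62.2%, interval 58.5 to 65.8%) but at 124 of 456 SPRT-side hotspots (27.2%, interval 23.3 to 31.5%). A share of 25 to 75%, that is a mark that would count as matched, was found at 122 B6-side hotspots (18.3%) and at 226 SPRT-side hotspots (49.6%). The mark was at or below 50% on the cut homolog at 3 B6-side and 41 SPRT-side hotspots. A one-sided mark on the cut homolog, over 75%, was found at 545 B6-side hotspots (81.7%) and 229 SPRT-side hotspots (50.2%).

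Departure from an even split was tested at each hotspot by the exact binomial test on its SNP-carrying reads, 2-sided, with Benjamini-Hochberg adjustment over the 9487 autosomal hotspots of the hybrid with at least 10 such reads. More reads came from the B6 homolog at adjusted p below 0.05 at 655 of 667 B6-side hotspots (98.2%), against 63.0% of all hotspots tested. More reads came from the SPRT homolog at 377 of 456 SPRT-side hotspots (82.7%), against 19.6% of all hotspots tested. In the direction opposite to the breaks, 1 B6-side and 10 SPRT-side hotspots were called, and 11 and 69 were not called either way. Among matched hotspots 606 of 1341 were called towards B6 and 109 towards SPRT. The test covers counting error in a pool of samples and not the variation between mice.

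A split expected to lie at 54.5% from B6, as pooled over the matched hotspots, in place of 50%, gave 648 B6-side calls towards B6, against 55.2% of all hotspots tested, and 405 SPRT-side calls towards SPRT, against 24.0%. SPRT-side hotspots thus gained calls, and a larger share of them than of the B6-side hotspots remained without one.

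Some of the contrast goes with how one-sided the breaks were. With hotspots compared at the same DMC1 share of the cut homolog, the median H3K4me3 share of that homolog was 70.5% on the B6 side and 58.6% on the SPRT side where the DMC1 share was 75 to 85% (108 and 138 hotspots). It was 87.0% and 74.4% where the DMC1 share was 85 to 95% (182 and 172 hotspots), and 97.1% and 91.8% above that (377 and 146 hotspots). The intervals of the medians did not overlap in any of the 3 bins. The mean difference over these bins was 9.92 percentage points, against 19.7 without binning. Matched hotspots also had a higher median B6 share in the mark (54.3%) than in the breaks (47.0%). Such a shift towards B6 was not taken out of these shares, nor out of the enrichment of each homolog given below. Its part in the contrast between the directions was not tested.

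H3K4me3 enrichment was below that of matched hotspots in both directions and did not separate them from each other. The median enrichment over input was 26.7 at B6-side hotspots (interval 25.5 to 28.2), 28.5 at SPRT-side hotspots (26.5 to 31.0) and 43.7 at matched hotspots (42.2 to 45.1). The SPRT-side over B6-side ratio of medians was 1.07, with 0.937 to 1.21 from the ends of both intervals, and the SPRT-side median was the higher on 13 of 19 autosomes. Against matched hotspots the median was lower on 19 of 19 autosomes for the B6 side and on 18 for the SPRT side, chromosome 15 being the exception. ChIP coverage ran the same way, with medians of 154, 162.5 and 251.5, while input coverage was 28, 28 and 29.

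When enrichment was divided between the homologs by their shares of SNP-carrying reads, the cut homologs were similar and the spared ones were not. The homolog that was cut had a median enrichment of 23.9 on the B6 side (interval 22.7 to 25.1) and 21.7 on the SPRT side (19.9 to 23.0). At matched hotspots the B6 homolog had 23.9 (23.1 to 24.7) and the SPRT homolog 19.4 (18.5 to 20.1). The spared homolog had 1.20 on the B6 side (interval 0.979 to 1.42), where it was the SPRT chromosome. It had 6.70 on the SPRT side (4.71 to 7.90), where it was the B6 chromosome, and this was the higher on 19 of 19 autosomes. The homolog that was cut was thus marked about as much as the same homolog at matched hotspots, and the lower total enrichment of one-sided hotspots lay on the other homolog.

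**Figure D3:**
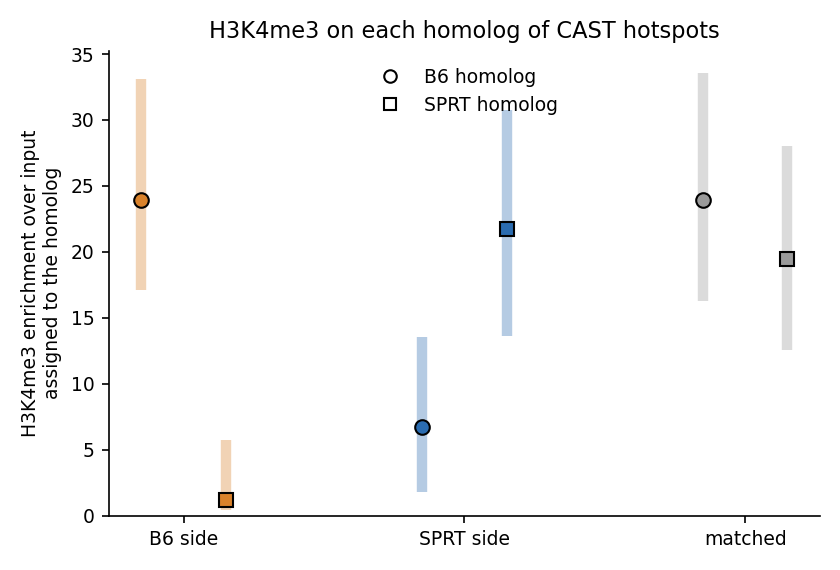
H3K4me3 enrichment over input assigned to the B6 homolog (circles) and the SPRT homolog (squares) of CAST hotspots, as medians with bars from the lower to the upper quartile, for 667 B6-side, 456 SPRT-side and 1341 matched hotspots. The cut homologs sit at 23.9 and 21.7, near the values at matched hotspots, while the spared homolog is at 1.20 on the B6 side and 6.70 on the SPRT side.

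The DMC1 signal was the higher on the SPRT side. Its median was 20.9 at B6-side hotspots (interval 20.03 to 21.97, quartiles 14.2 and 32.1) and 25.6 at SPRT-side hotspots (23.2 to 28.2, quartiles 15.6 and 42.7), with 27.7 at matched hotspots (26.2 to 29.1). The ratio of the SPRT-side to the B6-side median was 1.23 (1.06 to 1.41 from the ends of both intervals), and the SPRT-side median was the higher on 16 of 19 autosomes, chromosomes 8, 11 and 12 being the exceptions. B6-side hotspots had a lower median signal than matched ones on 19 of 19 autosomes, SPRT-side hotspots on 13. The signal comes from the library that chose the hotspots, and no test was made.

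Per unit of H3K4me3 enrichment, one-sided hotspots had more DMC1 signal than matched ones, and SPRT-side hotspots had the most. The median signal per enrichment was 0.826 on the B6 side (interval 0.777 to 0.884), 0.972 on the SPRT side (0.903 to 1.07) and 0.692 at matched hotspots (0.663 to 0.725). The SPRT-side over B6-side ratio was 1.18 (1.02 to 1.37 from the ends of both intervals), and it was above 1 on 15 of 19 autosomes. Enrichment is the divisor of this quantity, and one-sided hotspots were the less enriched. The classes were therefore also compared within 5 equal parts of the CAST hotspots ordered by enrichment. In every class the quantity was lower in the highest part than in the lowest, though at matched hotspots it did not fall at each step.

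The order of the directions was the same in all 5 parts, whereas the contrast with matched hotspots was not. In the lowest part the median signal per enrichment was 1.14 on the B6 side, 1.49 on the SPRT side and 1.012 at matched hotspots. In the middle part it was 0.716, 0.854 and 0.764, and in the highest 0.404, 0.691 and 0.536. From the middle part upwards the B6-side medians thus lay below the matched ones, but the intervals of these classes overlapped in each part. The SPRT-side medians were above the matched ones throughout, although the intervals were apart in the lowest part only. The intervals of the directions overlapped in each part. The median DMC1 signal itself was higher on the SPRT side in all 5 parts, but the intervals were apart in the highest part only. There it was 25.5 at 40 B6-side hotspots (interval 22.0 to 34.4) and 45.6 at 52 SPRT-side hotspots (37.6 to 59.8). In the lowest part it was 14.9 on the B6 side (interval 14.2 to 16.4) and 17.2 on the SPRT side (15.4 to 20.1). In the part next to the highest it was 27.5 (23.4 to 32.1) and 36.6 (31.3 to 44.3). Taking the cut homolog alone, its DMC1 signal per its own enrichment had a median of 0.880 on the B6 side (interval 0.847 to 0.924). On the SPRT side it was 1.18 (1.10 to 1.27), a ratio of 1.34 (1.19 to 1.504). At matched hotspots the SPRT homolog had 0.809 (0.773 to 0.846), and the value of the B6 homolog was not computed. Matched hotspots also had a lower median B6 share in the breaks (47.0%) than in the mark (54.3%). How far the contrast is particular to one-sided hotspots was not tested.

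**Figure D4:**
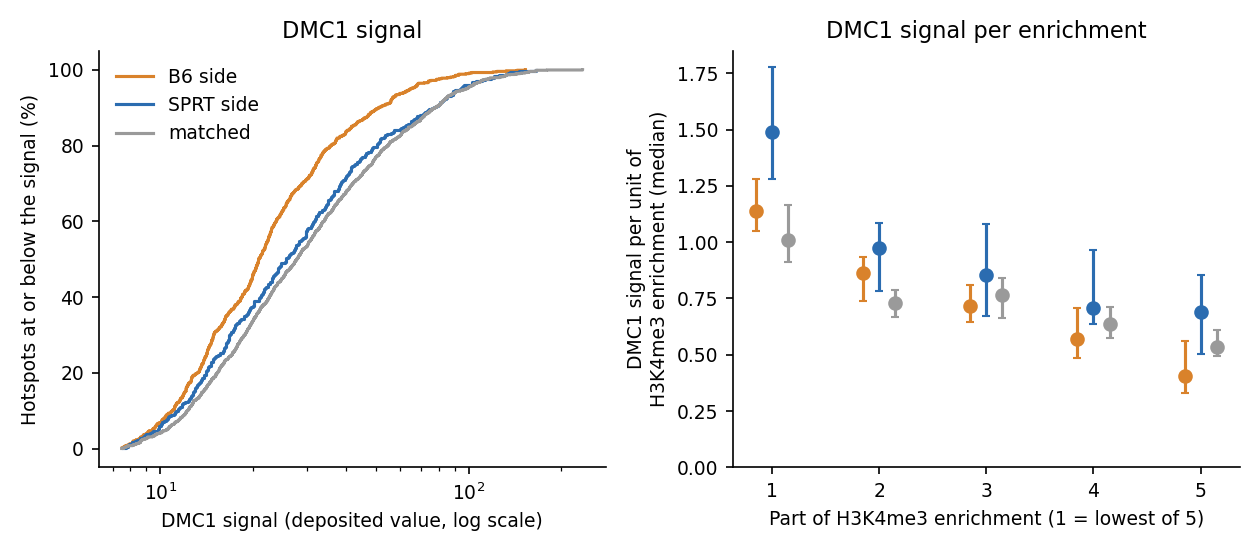
Left, percentage of CAST hotspots (y axis) at or below a DMC1 signal (x axis, log scale, deposited value) for B6-side, SPRT-side and matched hotspots. Right, median DMC1 signal per unit of H3K4me3 enrichment within 5 equal parts of enrichment (1 is the lowest), with 95% order-statistic intervals. B6-side hotspots had the lowest signals (median 20.9), and SPRT-side medians exceeded B6-side medians in all 5 parts, from 1.49 against 1.14 in the lowest to 0.691 against 0.404 in the highest.

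On the SPRT side the signal per enrichment rose with each step in the DMC1 share of the cut homolog. On the B6 side it was higher only above 95%. No intervals were computed for this quantity in these bins. Where the DMC1 share of the cut homolog was 75 to 85%, the median signal per enrichment was near equal, 0.746 on the B6 side and 0.767 on the SPRT side. It was 0.739 and 0.933 at 85 to 95%, and 0.897 and 1.43 above 95%. The SPRT-side hotspots above 95%, 146 in number, thus had the highest DMC1 signal for their mark. Their median signal was 31.7 against 21.9 at the 377 B6-side hotspots of the same bin. Hotspots with all DMC1 reads from the cut homolog did not have the higher signal. Their median was 24.1 against 26.1 at the others on the SPRT side, and 19.4 against 21.8 on the B6 side.

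The strongest hotspots show the range among the members. On the B6 side the largest DMC1 signal, 152.8, was on chromosome 3 at position 83078997, 6.71 kb from Plrg1, with 99.5% of DMC1 reads and 98.1% of 473 H3K4me3 reads from B6 (Wilson interval of the latter 96.4 to 99.0%). Another, 132.4 on chromosome 4 at position 28839970 within Epha7, an ephrin receptor gene, was as one-sided, with 98.7% of DMC1 and 99.2% of 370 H3K4me3 reads from B6. The other three of the strongest 5 kept more on the SPRT homolog. The hotspot on chromosome 14 at position 36869708, 5.23 kb from Ccser2, had a signal of 143.5 with 81.9% of DMC1 and 74.0% of 631 H3K4me3 reads from B6. The hotspot on chromosome 9 at position 82831827, within Irak1bp1, had 123.5 with 89.6% and 82.5%, and that on chromosome 15 at position 81363168, 1.88 kb from St13, had 119.7 with 77.3% and 71.1%.

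On the SPRT side the strongest hotspot, with a signal of 165.3 on chromosome 3 at position 65839501, 2.97 kb from Lekr1, had 8.99% of DMC1 reads and 13.3% of 323 H3K4me3 reads from B6 (Wilson interval 10.04 to 17.45%). The second, 153.0 on chromosome 5 at position 76760919 within Cracd, had 0.897% and 2.65%. The third, 145.5 on chromosome 11 at position 23488808, where Usp34 and Ahsa2 overlap, had no DMC1 reads from B6 and 2.97% of 202 H3K4me3 reads. The latter pair were thus nearly complete in both assays. The next in strength, on chromosome 10 at position 9078820 and chromosome 3 at position 53353754, lay 50.6 kb from Gm51794 and 42.0 kb from Gm40048 and had signals of 135.8 and 134.0. Their B6 shares were 11.1% and 21.3% of DMC1 reads but 29.3% and 40.5% of H3K4me3 reads, so that the B6 homolog was marked more than it was cut.

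The strongest hotspots whose mark did not lean to the cut homolog were of the same kind. On chromosome 8 at position 3274076, within Insr, the insulin receptor gene, a SPRT-side hotspot with a signal of 87.9 had 17.5% of DMC1 reads but 52.0% of 592 H3K4me3 reads from B6 (interval 48.0 to 56.0%, adjusted p = 0.378 by the exact binomial test). On chromosome 6 at position 135093135, 8.43 kb from Gprc5a, a SPRT-side hotspot of signal 71.5 had 23.3% and 53.2% of 618 reads (interval 49.3 to 57.1%, adjusted p = 0.135 by the same exact test). On the B6 side only 1 hotspot with at least 50 H3K4me3 reads had 50% of them or more from the spared homolog. It lay on chromosome 17 at position 6191328 within Tulp4, with a signal of 9.92, 85.7% of DMC1 reads and 38.8% of 116 H3K4me3 reads from B6 (interval 30.4 to 47.9%, adjusted p = 0.0246 by the same exact test).

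Genes held a smaller share of B6-side than of matched hotspots. The centre lay within an annotated gene at 396 of 671 B6-side hotspots (59.0%, Wilson interval 55.3 to 62.7%), 295 of 458 SPRT-side hotspots (64.4%, 59.9 to 68.7%) and 926 of 1342 matched hotspots (69.0%, 66.5 to 71.4%). For protein-coding genes the shares were 51.7%, 57.2% and 62.2%. The share over all autosomal hotspots of the hybrid was not computed, so which class departs from it is not known. The median distance to the nearest other CAST hotspot was 174.4 kb on the B6 side, 177.2 kb on the SPRT side and 190.2 kb for matched hotspots, with intervals that overlapped.

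The positions of CAST hotspots were looked for in the hotspot lists of the other hybrids, with centres within 500 bases taken as shared. Hotspots of the STUS/B6 hybrid lay at 154 of 671 B6-side positions (23.0%, interval 19.9 to 26.3%; 0.890% of the 17309 in that list), 94 of 458 SPRT-side positions (20.5%, interval 17.1 to 24.5%; 0.543%) and 317 matched positions (23.6%). Nearly all of these were attributed to the STUS allele there, 149 of 154 and 91 of 94. Hotspots of STUS/Hum lay at 97 B6-side positions (14.5%; 0.967% of the 10031 in that list), 50 SPRT-side positions (10.9%; 0.498%) and 198 matched positions (14.8%), and 93 of the 97 and 49 of the 50 were STUS hotspots. In neither STUS hybrid did the intervals of one-sided and matched positions separate. Hotspots of B6/SPRT and of Hum/SPRT each lay at 4 B6-side and 1 SPRT-side positions. Alleles had themselves been attributed by comparing mice. Whether these low counts follow from the attribution was not tested, and they are not set against those of the STUS hybrids.

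At shared positions the B6 chromosome could be seen beside a different homolog. A STUS hotspot with a B6 fraction in STUS/B6 lay at 139 of the B6-side positions. Of these, 103 were cut mainly on B6 there, 36 were matched and 0 were cut mainly on STUS. The last count allows a share of up to 2.16% by an approximate limit, which is not a Wilson interval. Of the 88 SPRT-side positions, 56 were cut mainly on B6, 17 were matched and 15 were cut mainly on STUS. Among 287 matched positions the counts were 191, 90 and 6. The median B6 share in STUS/B6 was 97.4% at B6-side (interval 96.1 to 98.4%), 91.5% at SPRT-side (84.0 to 98.1%) and 94.6% at matched positions (90.7 to 96.6%). Over all 8122 STUS hotspots of that hybrid with a fraction it was 82.1%, and 4411 of these (54.3%) were cut mainly on B6. In STUS/Hum, STUS hotspots were cut mainly on STUS at 2 of 86 B6-side, 6 of 48 SPRT-side and 3 of 186 matched positions. They were cut mainly on B6 at 63, 30 and 131 of these positions, beside 62.1% of all 3398 STUS hotspots there with a fraction. The share of all STUS hotspots cut mainly on STUS was not computed.

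**Figure D5:**
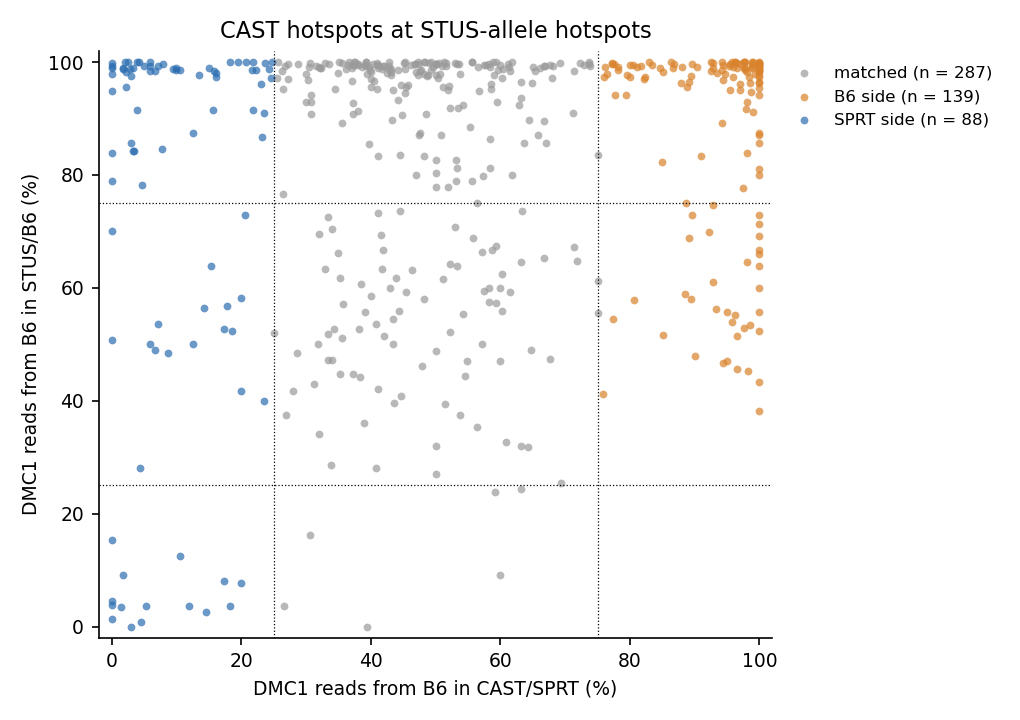
Percentage of DMC1 reads from the B6 homolog in STUS/B6 (y axis) against that in CAST/SPRT (x axis), 1 point for each CAST hotspot with a STUS-allele hotspot of STUS/B6 within 500 bases and a fraction in both, with the limits of 25 and 75% dotted. The median on the y axis was 97.4% for B6-side, 91.5% for SPRT-side and 94.6% for matched hotspots, and the points under 25% are 15 SPRT-side and 6 matched hotspots.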

How the data were processed

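The authors mapped reads with BWA to mm10, per the submitters' processing notes, called hotspots in the DMC1 library, attributed each to a Prdm9 allele from data of other mice, and told the homologs apart by SNPs. The authors deposited a DMC1 signal, whose scaling is not stated, and the fraction of DMC1 reads from B6, without its depth. The deposited H3K4me3 values are coverage counts for ChIP and for input, enrichment as a ratio to input by an unstated formula, and the fraction of SNP-carrying reads from B6 with their count. Each has a single column per genotype and was taken as pooled over samples. The tables were assigned to genotypes by the alleles they name. A further 13 columns of values, p-values and sharing marks among them, were not used here.

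Members were autosomal CAST hotspots with a B6 fraction below 25% or above 75%. The members, the named hotspots and the lists were chosen with earlier results of these data known. Medians carry 95% order-statistic intervals and shares 95% Wilson intervals, which describe hotspots in a library and cover counting error only. With 1 library there is no test between directions. The single test was the exact binomial test of H3K4me3 reads at hotspots with at least 10 SNP-carrying reads, called below an adjusted p of 0.05. Enrichment of a homolog is enrichment times its share of those reads. Named were the 5 strongest hotspots of each direction, those nearest each limit, up to 2 per direction with 50% or more of at least 50 H3K4me3 reads on the spared homolog, and, added after the data were seen, those in promoter windows, for which RefSeq sequence was at hand. Computations in Python 3.11.15 (scipy 1.17.1, numpy 2.4.6, pandas 2.3.3; figures by matplotlib 3.10.9) were tested on simulated data. Alternatives covered the limits, the DMC1 signal, the read minimum, pooling, the measure of enrichment, the expected share and the radius for shared positions.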

Additional observations from a re-analysis of the deposited data

How the results depend on the processing

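Of 38 alternative values, 15 were added after seeing the data. In all, 30 stayed within 1.5 times the main count or within the interval of the main value. No ratio or difference between the directions changed sign. The other values were counts of a single direction, which have no sign to change. At or above the median DMC1 signal the number of hotspots, cut by that choice itself, was 255 on the B6 side and 236 on the SPRT side. With limits of 10 and 90% the SPRT side had 234. With no-allele hotspots added it rose to 801, against 804 on the B6 side. The lead of the B6 side in the H3K4me3 share of the cut homolog was 19.7 percentage points, 15.2 with reads pooled and 9.92 within bins of DMC1 share. The SPRT-side over B6-side log2 ratio of DMC1 signal per enrichment was 0.23, and 0.49 with limits of 10 and 90%. It was 0.08 with ChIP coverage minus scaled input, which was above 0 at 245 of 671 and 193 of 458 hotspots. An expected share of 88.2%, as pooled over KO-marked hotspots, called 372 of 667 B6-side hotspots towards B6 and 456 of 456 SPRT-side hotspots towards SPRT, against 25.2% and 66.6% of all hotspots tested, so that the SPRT side had the more calls. Of the reads that set this share, 73.0% came from 1 hotspot. The cause of these changes was not tested. The motif search and its windows were not run, since no genome was used here. Leaving out H3K4me3 replicates was not run, since values were pooled. No paired analysis was possible because the tables hold a single pooled column per genotype and carry no replicate number. The unknown depth of the DMC1 fractions limits the count of hotspots near 25 and 75%.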

Other observations

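A further 999 autosomal CAST hotspots of CAST/SPRT had no B6 fraction of DMC1 and could not be placed by the breaks. Their median DMC1 signal was 25.8 (95% order-statistic interval 24.3 to 27.7) and their median H3K4me3 enrichment 34.8 (33.0 to 36.6), between the one-sided and the matched hotspots. Of the 979 with an H3K4me3 fraction, 91 had over 75% of those reads from B6 (9.30%, Wilson interval 7.63 to 11.3%) and 128 had under 25% (13.1%, 11.1 to 15.3%). By the mark, therefore, the SPRT direction was the more frequent among them. With these placed by H3K4me3 and added to the one-sided hotspots, the directions came to 762 and 586.

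Hotspots listed without an allele and cut mainly on the SPRT homolog had a mark as one-sided as the breaks. At 342 of them the median share of H3K4me3 reads from the cut homolog was 94.4% (interval 93.2 to 94.8%), against 75.1% at the SPRT-side CAST hotspots. The no-allele hotspots also had the more one-sided breaks, with a median DMC1 share of the cut homolog of 95.2% against 90.5%. At SPRT-side CAST hotspots with a DMC1 share of 95% and above, the median H3K4me3 share of the cut homolog was 91.8%. The 275 SPRT-side hotspots of the SPRT allele had 85.7% (82.0 to 87.7%), and the 614 SPRT-side hotspots of the humanized allele in Hum/SPRT had 67.0% (65.5 to 68.7%). On the B6 side the medians were 93.4% at 132 no-allele hotspots (90.8 to 95.2%), 95.7% at 2986 hotspots of the SPRT allele (95.4 to 95.9%) and 88.3% at 1259 of the humanized allele (87.6 to 88.7%). The SPRT side was thus the lower for both alleles, as for CAST, and not for the no-allele hotspots.

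The CAST hotspots of the X chromosome numbered 192 and had a median DMC1 signal of 35.9 (interval 26.3 to 44.1).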
